A study of Mus musculus with 30 samples.

Results

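Secreted and membrane Wnt antagonists of the gut stroma were followed through 10 genes, *Sfrp1*, *Sfrp2*, *Sfrp4*, *Sfrp5*, *Frzb*, *Wif1*, *Dkk1*, *Dkk2*, *Dkk3* and *Shisa3*, given as a list of names. They were 10 of the 32386 gene symbols to which the sequenced transcripts were summed. Wnt proteins are secreted ligands that bind Frizzled receptors together with the co-receptors Lrp5 and Lrp6, and in the gut the canonical branch of the pathway maintains the stem cells of the crypt. The secreted frizzled-related proteins, among them *Frzb*, carry a Frizzled-like cysteine-rich domain and, like Wif1, bind Wnt ligands outside the cell. Dkk1 and Dkk2 bind Lrp5 and Lrp6, Dkk3 is a divergent member of the Dickkopf family, and Shisa3 is a membrane protein of a family that retains Frizzled and FGF receptors in the endoplasmic reticulum.

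Gene expression was measured by bulk RNA sequencing of stromal cells sorted from the lamina propria of the small intestine (SI) and colon of untreated C57BL6/Nrj mice aged 8 to 10 weeks. The 30 libraries came from 10 sorted populations with 3 replicates each, and small and large intestines of individual mice were used, but which libraries share a mouse is not stated. Dead cells and cells bearing Lineage, CD31, BP3, EpCAM or high NCAM were removed by the sort.

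Pericytes of both tissues were PDGFRa-ESAM-1+PDPN- cells, and smooth muscle cells (SMC), sorted from the SI alone, were PDGFRa-ESAM-1+PDPN+ cells. The SI fibroblasts (FB) were ESAM-1- cells split into CD34+ FB (PDGFRaint CD34+), PDGFRahi FB (PDGFRahi CD34-) and Fgfr2+ FB (PDGFRaint CD34-). The CD34+ gate of the SI held Igfbp5+ FB and CD81+ FB together. The colonic FB were ESAM-1- cells split into CD81+ FB (PDPNint CD34+ CD90-), CD90+ FB (PDPNhi CD34+ CD90+), Fgfr2+ FB (PDPNhi CD34+ CD90-) and PDGFRahi FB (PDPN+ CD34-). The gates of PDGFRahi FB and Fgfr2+ FB therefore differed between the tissues.

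Total estimated counts per library lay between 2245052, in replicate 3 of SI Fgfr2+ FB, and 19096945, in replicate 1 of colonic CD90+ FB, with a median of 9601683. The unit of level was CPM, in which counts are set against the library total, after TMM normalization of the 30 libraries. A count of 0 allowed a level of up to 3 counts, which was 0.141 to 1.1 CPM depending on the library. Floors and ratio intervals below cover counting error only. Where libraries are said not to overlap, this is a description, and the share of all genes without overlap was not counted.

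Markers of most labelled populations were highest where the labels place them, with an exception in the CD90+ list. The 8 pericyte markers summed to 44114 CPM in SI pericytes and 42895 CPM in colonic pericytes, and to at most 5905 CPM in any other population, the SMC. The 6 SMC markers summed to 20455 CPM in SMC, but also to 10954 CPM in colonic pericytes, where *Myh11* alone was at 6902 CPM. *Pdgfra* averaged 6362 CPM in SI PDGFRahi FB and 2467 CPM in colonic PDGFRahi FB, against at most 929 CPM elsewhere. *Fgfr2* was highest in SI Fgfr2+ FB at 1684 CPM, and next in the Fgfr2+ FB of the colon at 476 CPM. It was not far below that in colonic CD90+ FB at 366 CPM, SMC at 339 CPM and SI CD34+ FB at 307 CPM. *Cd81* was highest in colonic CD81+ FB at 374 CPM, but *Thy1*, which encodes CD90, reached 214 CPM in SI pericytes and 196 CPM in colonic CD90+ FB. The 3 CD90+ FB markers summed to 1204 CPM in colonic CD81+ FB and to 825 CPM in colonic CD90+ FB. *Rgs5*, a pericyte marker, was at 3778 CPM in SI CD34+ FB. The 6 FB markers averaged 15082 to 61538 CPM in the FB populations, 8066 CPM in SMC and 3113 CPM in SI pericytes.

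Markers of other cell types were not equal between libraries. The 7 epithelial markers summed to at most 31.7 CPM, the 5 markers of enteric glia and neurons to at most 26.8 CPM and the 4 mesothelial markers to at most 16.5 CPM. The 6 endothelial markers reached 226 CPM in replicate 3 of SMC, of which *Pecam1* made 174 CPM, and the 4 markers of follicular reticular stroma reached 125 CPM in replicate 2 of SI CD34+ FB, mostly *Cxcl13* at 112 CPM. Replicate 1 of SI pericytes had the highest sums of 2 lists. Its 6 leukocyte markers summed to 412 CPM (*Cd68* 218 CPM, with 3 of the 6 at 0), against 77.7 and 71.2 CPM in the other SI pericyte libraries, and its 3 markers of interstitial cells of Cajal to 1105 CPM (*Ano1* 1045 CPM), against 562 and 731 CPM there and 699 to 878 CPM in colonic pericytes. In bulk libraries, fewer cells of a type and less RNA per cell cannot be told apart.

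The antagonists together were most abundant in the CD34+ FB of the SI and least in pericytes. Their summed level was 9190 ± 1699 CPM (SD, n = 3) in SI CD34+ FB, 4916 ± 1245 CPM in SI Fgfr2+ FB, 4580 ± 265 CPM in colonic Fgfr2+ FB and 4504 ± 3114 CPM in SMC. It was 2817 ± 622 CPM in colonic CD90+ FB, 1968 ± 223 CPM in colonic CD81+ FB, 1348 ± 299 CPM in colonic PDGFRahi FB, 950 ± 110 CPM in SI PDGFRahi FB, 233 ± 65.2 CPM in SI pericytes and 107 ± 37.7 CPM in colonic pericytes. The PDGFRahi FB of both tissues thus had the lowest sums among the FB. The SMC sum rested on replicate 3, at 8098 CPM, and without it the mean was 2707 CPM, below that of colonic CD90+ FB.

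Compared per transcript length, as shares of the summed TPM of the 10 genes, a unit that divides counts by transcript length, *Sfrp1* and *Dkk3* together held most of the mean sum in each of the 10 populations. Together they held 98.6% of the summed TPM in SMC and 96.6% in SI Fgfr2+ FB, and their lowest shares were 70.4% in SI pericytes and 78.7% in colonic CD81+ FB. *Sfrp1* was the larger of the pair in SMC and in every FB population other than PDGFRahi FB, with a mean share of 53.7% in SMC to 80.3% in SI CD34+ FB. In PDGFRahi FB the order turned, and *Dkk3* held 91.5 ± 3.12% of the summed TPM in the SI and 85.7 ± 2.43% in the colon, while *Sfrp1* held 2.37% and 7.25%. The only other mean shares above 5% were those of *Sfrp4* in colonic CD81+ FB (17.0 ± 8.18%), *Sfrp2* in colonic CD90+ FB (6.54 ± 3.82%), *Shisa3* in SI CD34+ FB (5.15 ± 1.88%) and SI pericytes, and *Dkk1* and *Dkk2* in colonic pericytes (6.69 ± 8.4% and 6.91 ± 9.16%). The *Shisa3* share of SI pericytes rested on replicate 1, with 76.4% there against 0.805% and 0.923% in the other libraries. In colonic pericytes *Dkk1* held 1.87% without replicate 3 and *Dkk2* 1.68% without replicate 1.

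**Figure D1:**
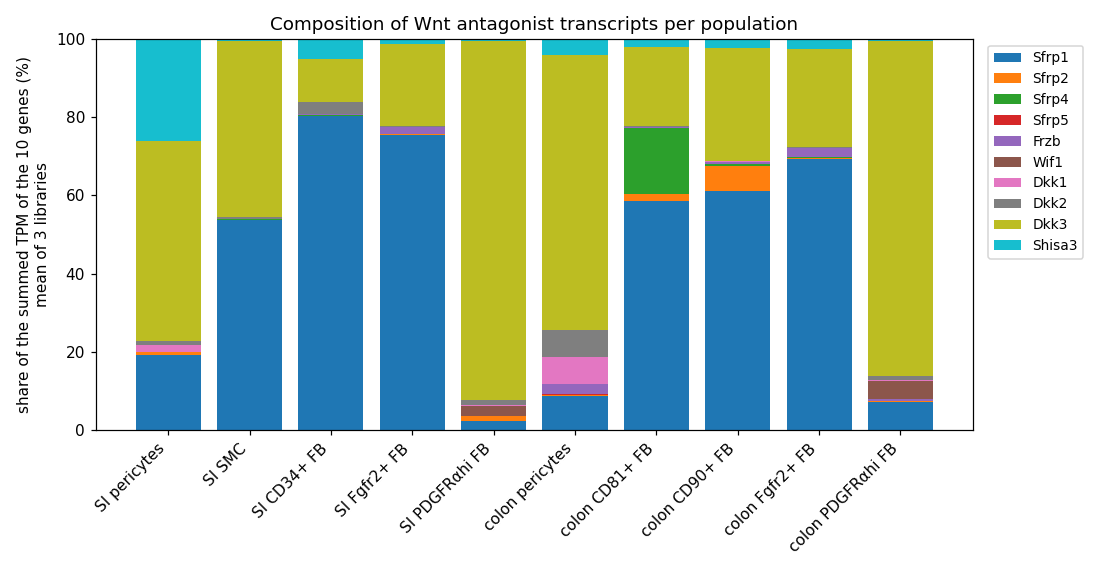
Stacked bars give the mean share (%, 3 libraries per population) of each of the 10 genes in their summed TPM. *Dkk3* fills 91.5% of the bar in SI PDGFRahi FB and 85.7% in colonic PDGFRahi FB, and *Sfrp1* fills 80.3% in SI CD34+ FB.

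*Sfrp1* (ENSMUSG00000031548, chr8:23411502-23449632 of GRCm38), a secreted Wnt-binding protein, was the most abundant antagonist. Its level in SI CD34+ FB was 7926, 9429 and 5897 CPM in replicates 1, 2 and 3, and in SI Fgfr2+ FB 4348, 4609 and 2843 CPM. In SMC it was 1695, 1572 and 4914 CPM. Every CD34+ FB library of the SI lay above every library of the other populations, and replicate 3 of SMC stood far above the other SMC libraries. In the colon it was 3342, 3420 and 3619 CPM in Fgfr2+ FB, 1438, 2491 and 1999 CPM in CD90+ FB and 1411, 1548 and 1215 CPM in CD81+ FB. PDGFRahi FB had 27.3, 34.2 and 28.8 CPM in the SI and 80.2, 170 and 146 CPM in the colon. Pericytes had 25, 107 and 19.9 CPM in the SI and 14.1, 7.12 and 11.2 CPM in the colon. The PDGFRahi FB and the pericytes of both tissues thus lay below all other FB and SMC. In the order of the 10 means, 3 of the 9 neighbouring pairs had ranges that did not overlap: SI CD34+ FB above SI Fgfr2+ FB, colonic CD81+ FB above colonic PDGFRahi FB, and SI PDGFRahi FB above colonic pericytes.

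*Sfrp2* and *Sfrp4*, further secreted frizzled-related proteins, were mainly colonic. *Sfrp2* (ENSMUSG00000027996, chr3:83766321-83774316) was at 78.2, 45.4 and 63.1 CPM in CD90+ FB, 22.6, 18.4 and 8.14 CPM in CD81+ FB and 6.75, 4.21 and 10.1 CPM in Fgfr2+ FB of the colon. All 3 CD90+ FB libraries lay above the rest, while the CD81+ and Fgfr2+ FB ranges overlapped, and no library of any other population exceeded 4.76 CPM. *Sfrp4* (ENSMUSG00000021319, chr13:19623104-19632994) was at 174, 235 and 59.0 CPM in colonic CD81+ FB, above every other library. It followed in SI CD34+ FB at 6.41, 5.56 and 6.84 CPM, in colonic CD90+ FB at 1.22, 2.23 and 10.4 CPM and in colonic Fgfr2+ FB at 6.32, 1.76 and 3.69 CPM, with overlapping ranges. *Sfrp4* counts were 0 in all 3 libraries of SI Fgfr2+ FB, of SI PDGFRahi FB and of SI pericytes. *Sfrp5* was all but undetected, with 50 counts over the 30 libraries, 24 of them at 0, and a highest level of 1.35 CPM.

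*Frzb* (ENSMUSG00000027004, chr2:80411970-80447625), a secreted Wnt-binding protein also known as sFRP3, was highest in the Fgfr2+ FB of both tissues. Its levels there were 110, 63.5 and 34.5 CPM in the SI and 88.2, 25.2 and 12.5 CPM in the colon. SI CD34+ FB had 15.3, 18.2 and 20.3 CPM and colonic CD90+ FB 7.01, 15.5 and 17.6 CPM. The spread within Fgfr2+ FB was wide, and these 4 populations overlapped in sequence, each with the next. Colonic PDGFRahi FB were at 4.90, 6.82 and 4.35 CPM, below the range of colonic CD90+ FB, and SI PDGFRahi FB at 0, 0.108 and 0.113 CPM, with 3 counts in all. *Frzb* in colonic pericytes came from replicate 2 alone, at 10.4 CPM with the other libraries at 0, and colonic CD81+ FB had 0.161, 0 and 3.14 CPM.

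*Wif1* (ENSMUSG00000020218, chr10:121033960-121100650), the Wnt inhibitory factor, was a gene of PDGFRahi FB. It was at 6.05, 18.9 and 10.7 CPM in the SI and at 23.2, 37.1 and 28.0 CPM in the colon, ranges that did not overlap. In the other 24 libraries no more than 1 count was seen, and 19 libraries had none. Of its counts over all libraries, 57.0% fell on a transcript annotated as a retained intron and 34.1% and 8.89% on the protein-coding ones, so that most of its RNA by these estimates was not assigned to a coding transcript.

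*Dkk2* (ENSMUSG00000028031, chr3:132085292-132180304), a ligand of Lrp5 and Lrp6, was high in a single population. SI CD34+ FB had 304, 229 and 182 CPM, and the next highest means were 18.2 CPM in SMC, or 10.5 CPM without its replicate 3, 15.4 CPM in SI PDGFRahi FB and 15 CPM in colonic PDGFRahi FB. Each CD34+ FB library lay above all others, and below them only the step from colonic CD90+ FB (3.32 CPM) to SI pericytes (2.29 CPM) was without overlap. In colonic pericytes the 3 values were 20.5, 0.491 and 2.27 CPM, so that replicate 1 set the mean. *Dkk1* (ENSMUSG00000024868), which binds the same co-receptors, was seen in all 30 libraries but at 0.272 to 13.1 CPM, the highest in replicate 3 of SMC, and no neighbours in the order of its means were separate.

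*Dkk3* (ENSMUSG00000030772, chr7:112116017-112159057) was the most evenly spread of the abundant members. It was at 1085, 991 and 3117 CPM in SMC, 715, 778 and 832 CPM in SI CD34+ FB, 1158, 826 and 547 CPM in SI Fgfr2+ FB and 870, 988 and 789 CPM in SI PDGFRahi FB. In the colon it was at 876, 1235 and 1361 CPM in PDGFRahi FB, 872, 894 and 1085 CPM in Fgfr2+ FB, 566, 785 and 732 CPM in CD90+ FB and 240, 387 and 440 CPM in CD81+ FB. Neighbours in the order of the FB means overlapped, apart from colonic CD81+ FB, which lay below all other FB libraries. Pericytes were lowest, with 12.3, 112 and 268 CPM in the SI and 72.9, 113 and 41.9 CPM in the colon. SI pericytes thus spread widely, and replicate 1, the library with the highest leukocyte and Cajal marker sums, had the lowest *Dkk3*. The part of those markers in this value was not tested.

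*Shisa3* (ENSMUSG00000050010, chr5:67607882-67623552) was highest in SI CD34+ FB, at 367, 349 and 483 CPM. The Fgfr2+ FB had 87.5, 42.2 and 47.4 CPM in the SI and 52.7, 130 and 146 CPM in the colon. It was at 61.2, 50.0 and 74.1 CPM in colonic CD90+ FB and at 26.8, 30.2 and 66.1 CPM in colonic CD81+ FB. These last 4 populations overlapped, and all CD34+ FB libraries of the SI lay above them. SMC had 21.6, 17.3 and 19 CPM. PDGFRahi FB had 6.97, 6.94 and 5.90 CPM in the SI and 6.37, 9.05 and 4.48 CPM in the colon, and colonic pericytes 1.56, 9.58 and 3.51 CPM. PDGFRahi FB of both tissues thus lay below every other FB population. In SI pericytes replicate 1 stood apart at 129 CPM, with 1.82 and 3.15 CPM in replicates 2 and 3. This is the library with the highest leukocyte and Cajal marker sums, and the part of those markers in the result was not tested.

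**Figure D2:**
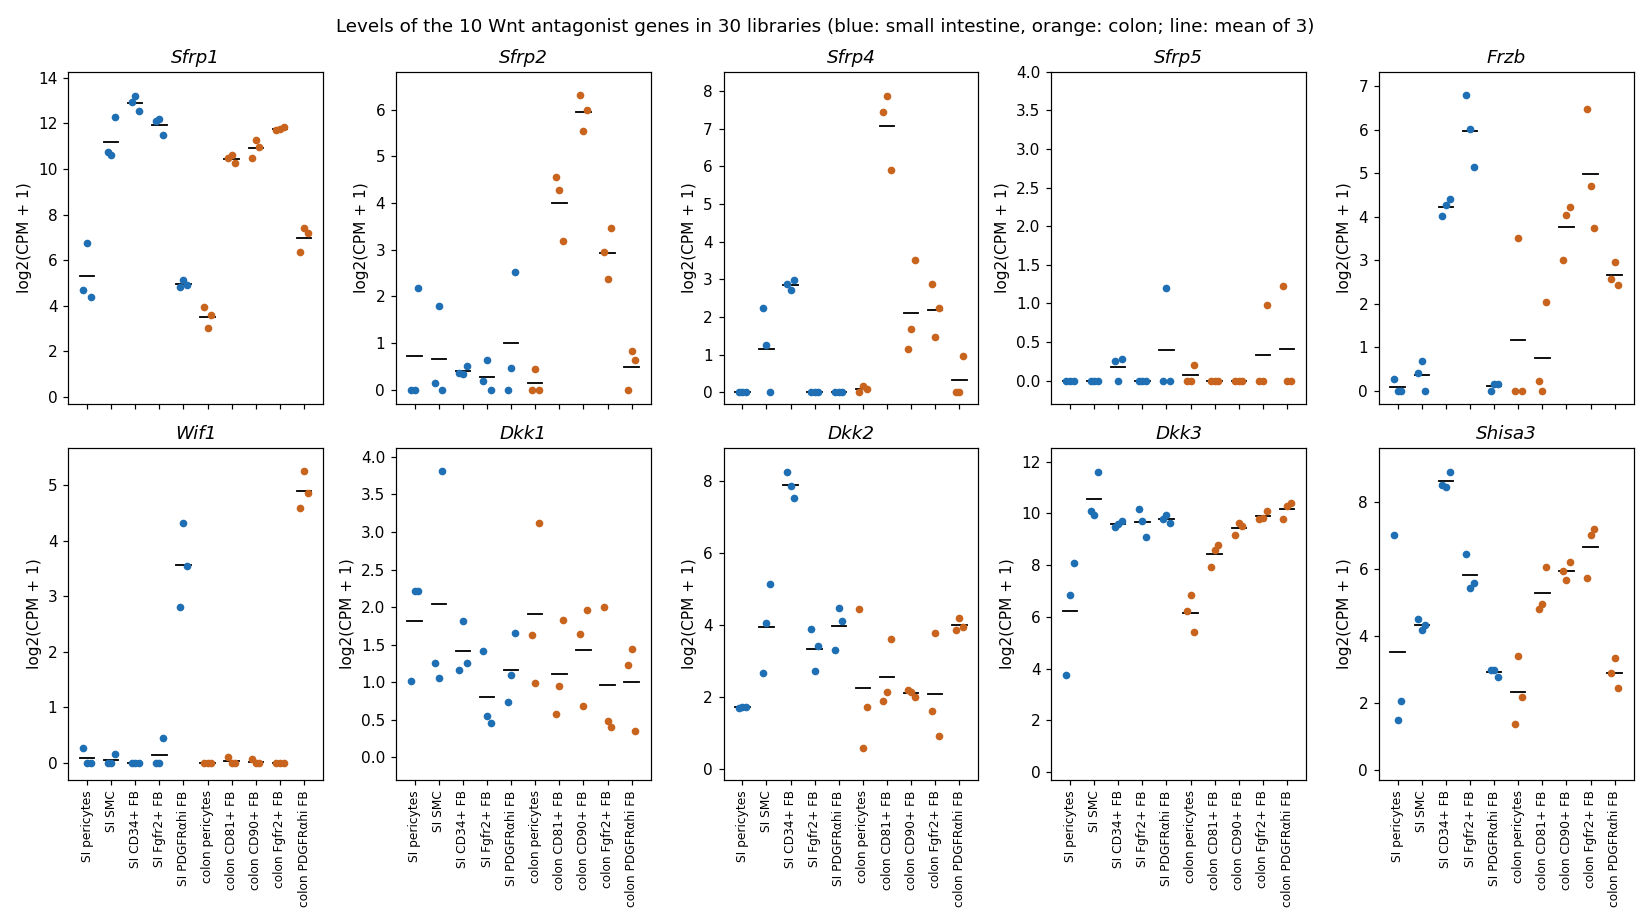
Each panel shows one gene as log2(CPM + 1) in the 30 libraries (points), grouped by population, with SI in blue, colon in orange and a line at the mean of 3 libraries. *Dkk2* and *Shisa3* peak in SI CD34+ FB (238 and 400 CPM), *Sfrp4* in colonic CD81+ FB (156 CPM), *Sfrp2* in colonic CD90+ FB (62.2 CPM) and *Wif1* in PDGFRahi FB (11.9 CPM in the SI, 29.4 CPM in the colon).

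Fibroblasts were compared with pericytes in each tissue to ask which antagonists separate FB from the cells of vessel walls. In the SI, *Sfrp1*, *Frzb*, *Dkk2* and *Dkk3* were called higher in the mean of the 3 FB populations than in pericytes. In the colon, *Sfrp1*, *Sfrp2*, *Sfrp4*, *Dkk3* and *Shisa3* were called higher in the mean of the 4 FB populations. A gene was called at an adjusted p below 0.05 with an absolute log2 fold change above 1.5, by edgeR's quasi-likelihood test with Benjamini-Hochberg adjustment over all genes tested. Of the 9 members tested in each tissue, *Wif1* passed the filter on low counts only through PDGFRahi FB, and *Sfrp4* in the SI only through CD34+ FB. The counts of calls therefore leave these out. The calls were 4 of 7 members in the SI, where 15.2% of all genes were called, and 5 of 8 in the colon, where 16.6% were called. *Sfrp1* was higher in FB, the log2 fold change being 4.22 (SE 0.572, adjusted p 6.66e-05) in the SI and 6.58 (SE 0.362, adjusted p 1.14e-09) in the colon, and *Dkk3* by 2.66 (SE 0.642, adjusted p 0.00900) and 3.22 (SE 0.330, adjusted p 1.45e-06). The *Dkk3* ranges of FB and pericytes did not overlap in either tissue, whereas *Sfrp1* of SI PDGFRahi FB overlapped that of SI pericytes.

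Among the members called in one tissue, *Dkk2* was higher in SI FB by 3.80 (SE 0.622, adjusted p 0.000421), without overlap. *Frzb* was called higher in SI FB (adjusted p 0.00254) against 1 count in SI pericytes, with overlapping libraries. In the colon *Shisa3* was higher in FB by 2.89 (SE 0.589, adjusted p 0.00191). *Sfrp2* and *Sfrp4* were called higher in colonic FB (adjusted p 0.00112 and 0.00208) against 3 and 2 counts in pericytes. The libraries of FB and pericytes overlapped for all 3. With so few counts in pericytes no size is given for *Frzb*, *Sfrp2* and *Sfrp4*. Single pericyte libraries moved the sizes in the SI: *Sfrp1* was at 5.40 without replicate 2 and *Dkk3* at 3.69 without replicate 3. In the colon, *Shisa3* was at 3.82 without replicate 2 of the pericytes. Whether the difference between FB and pericytes itself differed between the tissues was not tested. In the SI, *Shisa3* was not called between FB and pericytes (log2 fold change 0.21, adjusted p 0.902), but without replicate 1 of SI pericytes it was called higher in FB, at 4.42 (adjusted p 1.07e-05, the range over the left-out libraries being 1.07e-05 to 0.991). In the colon, *Frzb* was called only without replicate 2 of the pericytes (adjusted p 0.00961, range 0.00961 to 0.977), which held all *Frzb* and *Sfrp2* counts of that population, and the *Sfrp4* call was lost without replicate 3 of PDGFRahi FB, whose other libraries had no *Sfrp4* count (adjusted p 1.00, range over the left-out libraries 0.00161 to 1.00).

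SMC were compared with the pericytes and with the FB of the SI. Against pericytes, *Sfrp1*, *Dkk2* and *Dkk3* were called higher in SMC, the log2 fold changes being 5.64 (SE 0.648, adjusted p 2.76e-05), 2.89 (SE 0.642, adjusted p 0.00888) and 3.65 (SE 0.733, adjusted p 0.00427). These were 3 of 7 members, with 8.51% of all genes called, and the libraries of SMC and pericytes did not overlap for any of them. Without replicate 2 of the pericytes *Sfrp1* was at 6.88, without replicate 3 of the pericytes *Dkk3* was at 4.68, and without replicate 3 of SMC *Dkk2* was at 2.15, *Dkk3* at 2.95 and *Sfrp1* at 4.96. The FB markers moved the same way, and their sum was highest among SMC, at 10880 CPM, in replicate 3, the SMC library with the highest *Sfrp1*, *Dkk2* and *Dkk3*. The endothelial markers there summed to 226 CPM against 63.6 and 63.2 CPM in replicates 1 and 2, and the pericyte markers to 8409 CPM against 4855 and 4450 CPM. The part of these markers in the result was not tested. Between FB and SMC of the SI, 1 of 7 members was called, with 4.68% of all genes called: *Frzb* was higher in FB (adjusted p 0.0267), the FB range including that of SMC. No size is given, since PDGFRahi FB, which is 1 of the 3 FB populations averaged, had 3 *Frzb* counts and a mean of 0.074 CPM, below that of SMC at 0.304 CPM. These comparisons share SMC libraries with each other and pericytes or FB with that of SI FB and pericytes.

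The *Frzb* call between FB and SMC depended on single libraries. Its adjusted p was 0.0878 without replicate 1 and 0.0794 without replicate 3 of SMC, 0.0507 and 0.0537 without replicates 2 and 3 of CD34+ FB, 0.0874 without replicate 2 of PDGFRahi FB and 0.0542 without replicate 1 of Fgfr2+ FB, in a range of 0.0115 to 0.0878 over the 15 left-out libraries. *Sfrp1* was at -1.42 (SE 0.405, adjusted p 0.0507) between FB and SMC and was called lower in FB without replicate 1 of SMC (-1.66) or replicate 2 of SMC (-1.69), so that the library kept in each case was replicate 3, the high one. This comparison averages 3 FB populations on the log scale: the means of CD34+ FB (7751 CPM) and Fgfr2+ FB (3933 CPM) were above that of SMC (2727 CPM), and that of PDGFRahi FB (30.1 CPM) was far below it. Without replicate 1 of SI pericytes, *Shisa3* was called higher in FB than in SMC, at 1.53, and higher in SMC than in pericytes, at 2.89. Without replicate 3 of SMC, whose *Sfrp4* count was 0, *Sfrp4* was called between FB and SMC (adjusted p 0.0425, range over the left-out libraries 0.0425 to 0.271) and between SMC and pericytes (0.0383, range 0.0383 to 0.174). A fit of all 30 libraries also called *Sfrp4* in both comparisons (adjusted p 0.0273 and 0.0283). In the SI fit *Sfrp4* passed the filter only through CD34+ FB, so that no conclusion is drawn from its calls between SI populations. No size is given, since pericytes, Fgfr2+ FB and PDGFRahi FB had no *Sfrp4* count, while CD34+ FB lay above every SMC library. In the fit of the compared populations alone, *Dkk2* and *Dkk3* were no longer called between SMC and pericytes (adjusted p 0.312 and 0.0763), nor *Dkk2* in a fit of all 30 libraries (0.0506), where *Frzb* was not called between FB and SMC either (0.138). Over the alternative settings the adjusted p ranged from 0.000127 to 0.312 for *Dkk2*, from 7.66e-06 to 0.0763 for *Dkk3* and from 1.84e-05 to 0.138 for *Frzb*.

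Within the SI, the FB subsets were compared in pairs to ask how the antagonists divide among them. *Sfrp1* and *Frzb* were high in CD34+ FB and Fgfr2+ FB and low in PDGFRahi FB. Between CD34+ FB and PDGFRahi FB, *Sfrp1*, *Frzb*, *Dkk2* and *Shisa3* were called higher in CD34+ FB. These were 4 of 7 members, where 3.01% of all genes were called, and none of the 4 overlapped between the libraries of the populations. *Sfrp1* was higher in CD34+ FB by 7.98 on the log2 scale (SE 0.720, adjusted p 4.55e-06), *Dkk2* by 3.92 (SE 0.654, adjusted p 0.00171) and *Shisa3* by 5.89 (SE 1.19, adjusted p 0.00812). *Frzb*, with 3 counts in PDGFRahi FB, was higher in CD34+ FB by a ratio of 207 (95% counting interval 70.5 to 1008; adjusted p 0.00137). *Wif1*, with no count in CD34+ FB, was at least 41.2-fold higher in PDGFRahi FB against a floor of 3 counts per library, which is a description, as it passed the filter only there.

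Between Fgfr2+ FB and PDGFRahi FB of the SI, 2 of 7 members were called, where 2.24% of all genes were called. *Sfrp1* was higher in Fgfr2+ FB by 6.98 (SE 0.690, adjusted p 2.75e-05) and *Frzb* by a ratio of 982 (95% counting interval 336 to 4766; adjusted p 0.000556). *Wif1* averaged 0.122 CPM in Fgfr2+ FB, from 1 count, and 11.9 CPM in PDGFRahi FB. Between CD34+ FB and Fgfr2+ FB, 1 of 7 members was called, where 0.899% of all genes were called: *Dkk2* was higher in CD34+ FB by 4.65 (SE 0.679, adjusted p 0.00279). *Sfrp1*, at 1.00 (SE 0.536, adjusted p 0.577), *Frzb*, at -1.93 (SE 0.898, adjusted p 0.479), and *Shisa3*, at 2.78 (SE 1.03, adjusted p 0.317), were not called. Their CD34+ FB and Fgfr2+ FB libraries did not overlap, from which no conclusion is drawn. In 1 of 8 alternative settings, the fit of the compared populations, *Shisa3* was called (adjusted p 0.00803, range 0.00803 to 0.389), as it was between Fgfr2+ FB and PDGFRahi FB in 2 of 8, that fit and DESeq2 (range 0.0107 to 0.276). As a description, *Sfrp4* was at least 11.9-fold higher in CD34+ FB than in Fgfr2+ FB and at least 21.0-fold higher than in PDGFRahi FB. It was not called (adjusted p 0.161 and 0.0688). In 3 of 8 alternative settings *Sfrp4* was called against Fgfr2+ FB (range 0.0173 to 0.249). Against PDGFRahi FB it was called in 5 of 8 (range 0.00152 to 0.132), DESeq2 being among them in both comparisons. *Sfrp4* passed the filter in the SI only through CD34+ FB, where it was high, so that no conclusion is drawn from these calls. The 3 comparisons share populations with one another.

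Single libraries decided some of these calls as well. The *Shisa3* call between CD34+ FB and PDGFRahi FB was lost without replicate 1, 2 or 3 of PDGFRahi FB (adjusted p 0.0544, 0.0549 and 0.0597, range over the left-out libraries 1.2e-06 to 0.0597). Without replicate 1 of SI pericytes, which is in the fit but not in the comparison, *Shisa3* was called between CD34+ FB and Fgfr2+ FB (2.78, adjusted p 0.00111) and between Fgfr2+ FB and PDGFRahi FB (3.11, adjusted p 0.000161), and *Sfrp4* between CD34+ FB and PDGFRahi FB (adjusted p 0.0493). *Shisa3* was also called between Fgfr2+ FB and PDGFRahi FB without replicate 2 of the pericytes (0.0473), and *Sfrp4* between CD34+ FB and PDGFRahi FB without replicate 3 of SMC (0.0216). No conclusion is drawn from these *Sfrp4* calls, since it passed the filter only through CD34+ FB. Over the left-out libraries the adjusted p ranged from 0.00111 to 0.659 and from 0.000161 to 0.439 for the *Shisa3* tests and from 0.0216 to 0.24 for *Sfrp4*.

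In the colon, the same question was asked of 4 FB subsets. *Sfrp4* set CD81+ FB apart from the other subsets, *Wif1* was seen at more than 1 count per library only in PDGFRahi FB, and *Sfrp1* was called lower there than in each other subset. Between CD81+ FB and PDGFRahi FB, 5 of 8 members were called, where 4.55% of all genes were called. *Sfrp1* was higher in CD81+ FB by 3.40 (SE 0.323, adjusted p 4.47e-06), *Sfrp2* by 5.19 (SE 1.1, adjusted p 0.00799) and *Shisa3* by 2.62 (SE 0.641, adjusted p 0.0210). *Sfrp4* was called higher too (adjusted p 0.000372), with no size given because all 7 of its counts in PDGFRahi FB were in replicate 3. The size for *Sfrp2* was 4.60 without replicate 1 and 5.90 without replicate 2 of PDGFRahi FB, and 3.41 with TPM-scaled counts. These are the TPM of a library scaled to its total count. *Dkk3* was called lower in CD81+ FB, at -1.70 (SE 0.339, adjusted p 0.00486). In each of the 5 the libraries of the populations did not overlap. As a description, *Wif1* was lower in CD81+ FB by a ratio of 1186 (95% counting interval 212 to 46915).

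Between CD90+ FB and PDGFRahi FB, 3 of 8 members were called, where 1.7% of all genes were called. *Sfrp1* was higher in CD90+ FB by 3.89 (SE 0.330, adjusted p 3.38e-06), *Sfrp2* by 7.09 (SE 1.18, adjusted p 0.00223) and *Shisa3* by 3.19 (SE 0.655, adjusted p 0.0125), the size for *Sfrp2* being 7.79 without replicate 2 of PDGFRahi FB and 5.63 with TPM-scaled counts. *Wif1* was lower by a ratio of 1566 (95% counting interval 280 to 61948). Between Fgfr2+ FB and PDGFRahi FB, 2 of 8 members were called, where 1.51% of all genes were called. *Sfrp1* was higher in Fgfr2+ FB by 4.70 (SE 0.343, adjusted p 1.16e-06) and *Shisa3* by 4.02 (SE 0.680, adjusted p 0.00305), and *Wif1* was at least 93.9-fold lower, with no count in Fgfr2+ FB. With no filter on low counts edgeR called *Wif1* higher in PDGFRahi FB than in SI CD34+ FB and than in each of the other colonic FB subsets. With the filter, its edgeR call over SI CD34+ FB was lost without replicate 1, 2 or 3 of CD34+ FB (adjusted p 0.0841, 0.0841 and 0.0776). All 3 colonic comparisons share the PDGFRahi FB libraries.

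*Sfrp4* was called between CD81+ FB and CD90+ FB, as 1 of 8 members where 0.632% of all genes were called, and between CD81+ FB and Fgfr2+ FB, as 1 of 8 where 1.05% were called. It was higher in CD81+ FB by 5.11 (SE 1.07, adjusted p 0.0333) and by 5.34 (SE 1.1, adjusted p 0.0213), with no overlap of libraries. *Sfrp1* was lower in CD81+ FB than in Fgfr2+ FB at an adjusted p of 0.0414, but its log2 fold change of -1.3 (SE 0.298) was within the fold threshold. Between CD90+ FB and Fgfr2+ FB, edgeR called 0 of 8 members and 0% of all genes, and 2 members and 492 genes had an unadjusted p below 0.05. DESeq2 called 21 genes there, among them 1 member, *Sfrp2*, which was higher in CD90+ FB without overlap of libraries, at a log2 fold change of 3.14 (SE 0.956) in edgeR.

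The *Sfrp4* calls against CD90+ FB and Fgfr2+ FB rested on few libraries. Against CD90+ FB the adjusted p was 0.132 without replicate 2 of CD81+ FB, 0.187, 0.205 and 0.0504 without replicates 1, 2 and 3 of CD90+ FB and 0.0504 without replicate 3 of Fgfr2+ FB, in a range of 0.0245 to 0.205, and the size was 6.50 without replicate 3 of CD90+ FB. Against Fgfr2+ FB it was 0.0816 without replicate 2 of CD81+ FB and 0.0781, 0.119 and 0.101 without replicates 1, 2 and 3 of Fgfr2+ FB, in a range of 0.0155 to 0.119. TPM-scaled counts (0.15 and 0.0959) and a fit of all 30 libraries (0.0866 and 0.0537) also ended both calls, and a fit of the compared populations alone ended the call against CD90+ FB (0.0659). Over the alternative settings the range was 5.29e-06 to 0.15 against CD90+ FB and 1.41e-06 to 0.0959 against Fgfr2+ FB. Among the calls against PDGFRahi FB, *Dkk3* in CD81+ FB was at -1.49 without replicate 1 of CD81+ FB, inside the fold threshold. *Shisa3* in CD81+ FB was not called without replicate 3 of CD81+ FB (adjusted p 0.0835) or replicate 1, 2 or 3 of PDGFRahi FB (0.0989, 0.0536 and 0.118, range over left-out libraries 0.00532 to 0.118), and in CD90+ FB not without replicate 3 of CD90+ FB (0.0513) or replicate 1 or 3 of PDGFRahi FB (0.0836 and 0.101, range 0.00264 to 0.101). Both *Shisa3* calls and that of *Sfrp2* in CD81+ FB were lost with TPM-scaled counts (0.0640, 0.0544 and 0.147) and with all 30 libraries in the fit (0.109, 0.0812 and 0.0941), as was that of *Dkk3* with all 30 libraries (0.0994). The ranges over the alternative settings were 0.000563 to 0.109 and 2.1e-05 to 0.0812 for *Shisa3* in CD81+ FB and CD90+ FB, 1.16e-08 to 0.147 for *Sfrp2* and 0.00027 to 0.0994 for *Dkk3*.

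Some calls appeared in other settings or when a colonic library was left out. *Sfrp2* between Fgfr2+ FB and PDGFRahi FB, at 3.95 (SE 1.05, adjusted p 0.0765) with all libraries, was called without replicate 1, 2 or 3 of the pericytes (adjusted p 0.049998, 0.0243 and 0.0440, range over the left-out libraries 0.0243 to 0.274). It was also called by DESeq2 and with no filter, 2 of 8 alternative settings (range 9.44e-05 to 0.604). Without replicate 3 of PDGFRahi FB, the only one of that population with *Sfrp4* counts, *Sfrp4* was called higher in CD90+ FB (adjusted p 0.0323, range 0.0323 to 0.682) and in Fgfr2+ FB (adjusted p 0.0452, range 0.0452 to 0.575). DESeq2 called both as well, and edgeR with no filter the first (ranges over the alternative settings 0.00986 to 0.299 and 0.0202 to 0.379). DESeq2 also called *Frzb* lower in CD81+ FB than in Fgfr2+ FB (-5.26, adjusted p 0.0242, range 0.0242 to 0.362). The fit of the compared populations alone called *Frzb* higher in Fgfr2+ FB than in PDGFRahi FB (2.96, adjusted p 0.0367, range 0.0367 to 0.761). That fit also called *Dkk2* lower in CD90+ FB than in PDGFRahi FB (-2.19, adjusted p 0.0190, range 0.0190 to 0.849).

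Populations sorted under the same name in both tissues were compared to ask whether the antagonists differ between SI and colon. In PDGFRahi FB, *Sfrp1* and *Frzb* were called lower in the SI, 2 of 9 members where 1.76% of all genes were called, *Sfrp4*, which passed the filter only through colonic Fgfr2+ FB, being left out. *Sfrp1* was lower, at -2.11 on the log2 scale (SE 0.261, adjusted p 0.000193), with all 3 SI libraries below all 3 colonic ones, and *Frzb*, with 3 counts in the SI, by a ratio of 62.3 (95% counting interval 20.8 to 306; adjusted p 0.00253). *Wif1* was also lower in each SI library than in each colonic one, but at -1.3 (SE 0.818, adjusted p 0.801) it was not called. *Dkk2*, *Dkk3* and *Shisa3* had overlapping ranges in PDGFRahi FB of both tissues.

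In Fgfr2+ FB, edgeR called 0 of 9 members between the tissues, where 3.09% of all genes were called. Of all 10 members tested, *Sfrp4* included, 2 had an unadjusted p below 0.05, namely *Sfrp2* and *Sfrp4*. DESeq2 called 1 member there, *Sfrp2*, which had 8 counts in the SI and 199 in the colon and was at -4.66 (SE 1.72, adjusted p 0.168) in edgeR. As a description, *Sfrp4*, with no count in the SI, was at least 7.42-fold lower there without overlap. It was not called (adjusted p 0.0977), but was called in 2 of 8 alternative settings, the filter of 10 counts and the fit of all 30 libraries (range 0.0289 to 0.164). *Sfrp4* passed the filter only through colonic Fgfr2+ FB, where it was high, so that no conclusion is drawn from these calls. *Sfrp1* in Fgfr2+ FB was at 0.20 (SE 0.249, adjusted p 0.734) and *Frzb* at 0.75 (SE 0.648, adjusted p 0.599), with overlapping libraries. In pericytes, edgeR called 0 of 4 members, *Dkk1* having passed the filter only through the colon, and 0% of all genes, with 1094 genes and 0 members at an unadjusted p below 0.05, and DESeq2 called 348 genes and 0 members. *Sfrp1* in pericytes was above the colonic libraries in each SI library, at 2.28 (SE 1.05, adjusted p 0.612). Its mean in SI pericytes was 50.7 CPM, or 22.4 CPM without replicate 2.

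The difference between tissues itself differed between the subsets for *Sfrp1* and *Frzb*. The interaction, the difference of SI from colon in PDGFRahi FB minus that in Fgfr2+ FB, was -2.31 (SE 0.358, adjusted p 0.00293) for *Sfrp1* and was also called for *Frzb* (adjusted p 0.00714), with no size given because of its 3 counts in SI PDGFRahi FB. These were 2 of 9 members, where 1.28% of all genes were called. The interaction shares its libraries with both tissue comparisons, and the gates differed between the tissues, so that gate and tissue cannot be told apart. With TPM-scaled counts the *Frzb* calls were lost between tissues (adjusted p 0.0564) and in the interaction (0.185). With all 30 libraries in the fit both interaction calls were lost (0.148 for *Sfrp1* and 0.281 for *Frzb*), and so was the *Frzb* call between tissues (0.161), while *Sfrp1* and *Shisa3* were called higher in SI pericytes than in colonic ones (0.00605 and 0.0370, ranges over the alternative settings 0.00605 to 0.946 and 0.0370 to 0.99). *Shisa3* in SI pericytes rested on replicate 1, the other libraries, at 1.82 and 3.15 CPM, lying within the colonic range. Over the alternative settings the adjusted p of the interaction ranged from 7.29e-06 to 0.148 for *Sfrp1* and from 1.79e-05 to 0.281 for *Frzb*, and that of *Frzb* between tissues from 3.47e-06 to 0.161.

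**Figure D3:**
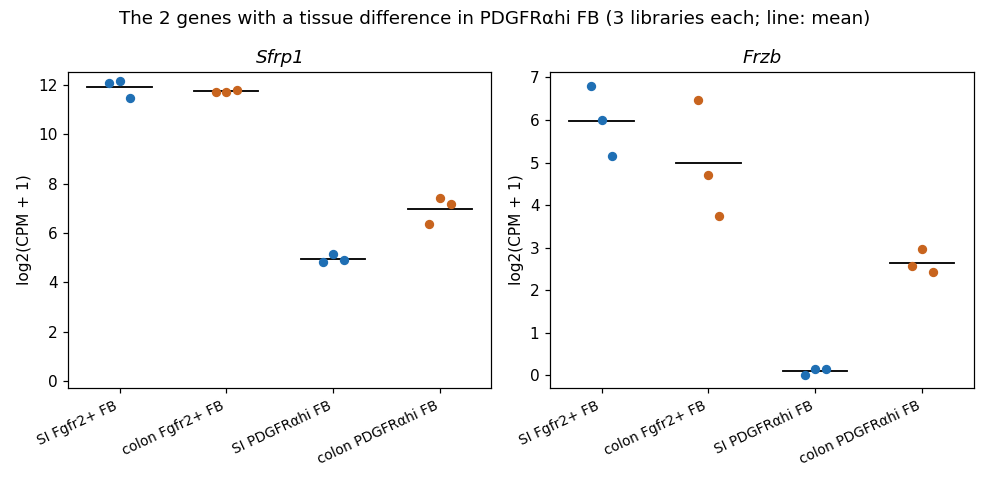
Levels of *Sfrp1* and *Frzb* as log2(CPM + 1) in the 3 libraries (points; line, mean) of Fgfr2+ FB and PDGFRahi FB of each tissue. Mean *Sfrp1* is 30.1 CPM in SI and 132 CPM in colonic PDGFRahi FB, against 3933 and 3460 CPM in Fgfr2+ FB, and the interaction is -2.31 for *Sfrp1*.

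Other genes of the pathway were followed through 6 lists with 74 genes in all, and the list medians given below include fitted values of genes with few or no counts, which are no bounds. Among 13 further antagonists, 8 were tested in the SI and colon, and *Notum*, *Sost*, *Sostdc1*, *Dkk4* and *Dkkl1* averaged below 1 CPM in all 10 populations. *Trabd2b*, a membrane protease that inactivates Wnt ligands, followed *Sfrp1* in being low in PDGFRahi FB. It averaged 2.32 CPM in SI PDGFRahi FB and 29.0 CPM in colonic PDGFRahi FB, against 43.8 CPM in SI Fgfr2+ FB, or 26.9 CPM without its replicate 2, 212 CPM in SI CD34+ FB and 193 to 241 CPM in the other colonic FB. It was called lower in PDGFRahi FB than in every other FB subset of its tissue, with SI CD34+ FB above it by 6.48 (SE 0.692, adjusted p 2.15e-05) and colonic CD81+ FB by 2.95 (SE 0.376, adjusted p 9.14e-05). It was also called lower in the SI than in the colon in PDGFRahi FB (-3.62, SE 0.555, adjusted p 0.00141) and in Fgfr2+ FB (-2.44, SE 0.509, adjusted p 0.0138). The call in Fgfr2+ FB was not kept in every alternative setting (range 5.02e-05 to 0.0781). *Apcdd1*, a membrane Wnt inhibitor, and *Shisa2* were called higher in SI CD34+ FB than in SI PDGFRahi FB (adjusted p 0.0357 and 0.0367), but each call was lost when any 1 library of the pair compared was left out (ranges over the left-out libraries 0.0107 to 0.181 and 0.01 to 0.198). *Igfbp4* was called higher in SI FB than in SMC, by 2.18 (SE 0.373, adjusted p 0.00136), and in colonic FB than in pericytes, by 2.28 (SE 0.275, adjusted p 9.44e-06). With TPM-scaled counts both calls were lost, the first at an adjusted p of 0.0538 (range over the alternative settings 4.09e-08 to 0.0538) and the second at a size of 1.37.

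Wnt ligands also divided the FB subsets. *Wnt5a*, a ligand of the non-canonical branch, averaged 606 CPM in SI and 598 CPM in colonic PDGFRahi FB, and 32.5 to 71.6 CPM in the other FB. *Wnt2b*, a canonical ligand, was low where *Wnt5a* was high, at 18.2 CPM in SI, or 10.9 CPM without replicate 1, and 101 CPM in colonic PDGFRahi FB against 270 to 699 CPM in the other FB. Between SI CD34+ FB and PDGFRahi FB, 1 of 7 ligands tested was called higher and 2 lower, where 3.01% of all genes were called, with a list median log2 fold change of -1.22 beside -0.02 over all genes. *Wnt2b* was higher in CD34+ FB by 5.0 (SE 0.479, adjusted p 6.96e-06), or 5.72 without replicate 1 of PDGFRahi FB, and *Wnt4* and *Wnt5a* were lower, at -4.40 (SE 0.660, adjusted p 0.000707) and -4.10 (SE 0.485, adjusted p 6.27e-05). Between colonic CD81+ FB and PDGFRahi FB, 3 of 10 were called higher and 2 lower, where 4.55% of all genes were called, with a list median of -2.18 beside 0.10. In Fgfr2+ FB between the tissues, *Wnt2* was at least 19.4-fold lower in the SI, where it had no count, than in the colon at 10.3 CPM, which is a description, as it passed the filter only through colonic Fgfr2+ FB.

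*Rspo2* and *Rspo3* encode secreted proteins that amplify Wnt signalling. *Rspo2* averaged 22.1 CPM in SI CD34+ FB and 13.7 CPM in colonic CD81+ FB, and at most 1.1 CPM elsewhere. *Rspo3* averaged 91.4 CPM in SI CD34+ FB. In colonic CD81+ FB it was at 4423 CPM in replicate 3, and the mean without that library was 25.6 CPM. Its call in CD81+ FB over colonic PDGFRahi FB (adjusted p 0.00953) was lost without replicate 3 (0.206, range over the left-out libraries 0.00157 to 0.206), and no size is given. The *Rspo3* call was also not kept in every alternative setting, the adjusted p ranging from 0.000154 to 0.0640. *Rspo2* passed the filter only through CD81+ FB and is left out of the count of calls there. Of the other 6 genes of R-spondins and their receptors tested, 1 was called higher, *Rspo3*, where 4.55% of all genes were called. The list median over all 7 tested was 1.16 beside 0.10 over all genes. Among Frizzled receptors and co-receptors, *Fzd1* and *Fzd4* were called higher in SI CD34+ FB than in PDGFRahi FB, by 3.22 (SE 0.451, adjusted p 0.000339) and 3.63 (SE 0.564, adjusted p 0.000985), the latter being 4.33 without replicate 3 of PDGFRahi FB. They were 2 of 14 tested, where 3.01% of all genes were called, with a list median of 0.30 beside -0.02. Both were also called over Fgfr2+ FB (adjusted p 0.00943 and 0.0477), but *Fzd4* not when any 1 library of that pair was left out (range over the left-out libraries 0.00931 to 0.213), nor *Fzd1* without replicate 1 of CD34+ FB or replicate 1 or 3 of Fgfr2+ FB (range 0.00278 to 0.0569). Neither call over Fgfr2+ FB was kept in every alternative setting (ranges 1.24e-05 to 0.0631 for *Fzd1* and 0.00386 to 0.188 for *Fzd4*). *Lrp6*, the co-receptor that Dkk1 and Dkk2 bind, was called higher in colonic CD81+ FB than in PDGFRahi FB (2.06, SE 0.405, adjusted p 0.00439), but was at 1.29, inside the fold threshold, without replicate 1 of CD81+ FB.

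Of the genes induced by canonical Wnt signalling, *Axin2* was higher in SI than in colonic PDGFRahi FB (2.45, SE 0.466, adjusted p 0.00813), while *Lef1* was lower in the SI (-3.76, SE 0.721, adjusted p 0.00873). The *Axin2* call was lost without replicate 1 or 3 of colonic PDGFRahi FB (range over the left-out libraries 0.00488 to 0.0717) and in 2 of the alternative settings (range 2.66e-07 to 0.418), and that of *Lef1* without replicate 1 or 2 of SI PDGFRahi FB (range over the left-out libraries 0.00146 to 0.0603). The *Lef1* call was not kept in every alternative setting either, the adjusted p ranging from 7.74e-07 to 0.0511. These were 1 higher and 1 lower of 7 tested, where 1.76% of all genes were called, with a list median of -0.40 beside 0.00 over all genes. In colonic CD81+ FB against PDGFRahi FB, 3 of 7 were called, where 4.55% of all genes were called, all lower in CD81+ FB, among them *Ccnd1* (-4.53, SE 0.436, adjusted p 5.20e-06), with a list median of -1.96 beside 0.10. The 10 genes of Wnt secretion and intracellular transduction had 2 calls between SMC and pericytes, where 8.51% of all genes were called, with a list median of 0.27 beside 0.02. Both *Tcf7l1* (adjusted p 0.0253) and *Dvl3* (0.0076) were higher in SMC, but neither was called in the fit of the compared populations alone (ranges over the alternative settings 0.00118 to 0.219 and 4.3e-05 to 0.127). Over the 6 lists, the comparisons with the most calls were SI FB against pericytes, with 15 of 53 genes tested beside 15.2% of all genes, and colonic CD81+ FB against PDGFRahi FB, with 14 of 55 beside 4.55%. The 14 include *Rspo2*, which passed the filter only through CD81+ FB. Each other comparison had 12 or fewer.

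The genes most like each of 8 antagonists, leaving out *Sfrp5* and *Dkk1*, which reached a mean of 10 CPM in no population, were sought by Pearson's r over the 10 population means of log2 CPM among 12613 genes, as a description with no test. For *Sfrp1* they were *Bche* (r 0.97), *Igf2bp2* and *Atrnl1*, for *Sfrp2* *Wnt2* (0.94), *Cntn4* and *Lpgat1*, and for *Sfrp4* *1810010H24Rik* (0.97), *Dtx1* and *Bcat1*. For *Frzb* they were *H2-Eb1* (0.94), *Ano5* and *Casp4*, and for *Wif1* *Cntnap5a* (0.98), *Dclk3* and *Cacna2d3*. For *Dkk2* they were *Mmp3* (0.85), *Gne* and *Iscu*, for *Dkk3* *Ereg* (0.98), *Srpx* and *Ttc27*, and for *Shisa3* *Mmp16* (0.96), *Gm18853* and *Rassf2*. Among these 8 themselves, *Sfrp1* and *Shisa3* had the most similar means (r 0.90) and *Wif1* and *Shisa3* the most opposite ones (r -0.51). The populations share depth and processing, and r over 10 means says nothing of shared control.

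Sequence shared with other genes can move estimated counts between them. For *Sfrp5*, *Frzb*, *Wif1* and *Dkk3* none of their 31-base stretches occurs in a transcript of another gene. *Sfrp2* shares 13.7% of its stretches with other genes, mostly with *Gm26771*, and *Shisa3* 2.33%, mostly with *Atp8a1*. The other members share 0.324 to 2.43%.

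*Dkk2* and *Shisa3*, which like *Sfrp1* had their own highest level in SI CD34+ FB, are shown by the 250 bases before their start, from RefSeq on GRCm38.p6. Capitals mark TATAAA on either strand, which 12.4% of 32851 promoters of this length hold, and CTTTGA on either strand, which 13.8% hold. The 2 promoters were chosen after the levels were seen. The *Dkk2* sequence is chr3:132085042-132085291 on the plus strand, with 1 TATAAA, and the *Shisa3* sequence is chr5:67607633-67607882 on the plus strand, with neither motif. Promoters of 7 members were in the table, of which 3 hold TATAAA and 2 hold CTTTGA.
Dkk2: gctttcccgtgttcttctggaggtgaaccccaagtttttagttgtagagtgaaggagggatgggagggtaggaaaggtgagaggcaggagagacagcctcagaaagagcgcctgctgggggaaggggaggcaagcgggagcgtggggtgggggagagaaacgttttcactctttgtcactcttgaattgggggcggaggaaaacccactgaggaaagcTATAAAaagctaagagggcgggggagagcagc
Shisa3: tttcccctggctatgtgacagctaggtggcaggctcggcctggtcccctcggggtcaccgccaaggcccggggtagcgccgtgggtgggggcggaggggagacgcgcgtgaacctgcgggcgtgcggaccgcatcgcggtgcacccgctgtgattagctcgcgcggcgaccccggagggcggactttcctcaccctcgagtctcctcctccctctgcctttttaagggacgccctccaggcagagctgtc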

How the data were processed

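Bulk RNA sequencing of 30 libraries, 3 from each of 10 sorted populations, was analysed from the transcript tables deposited by the authors. Per the submitters' processing notes, reads were trimmed with Trim Galore 0.4.0, checked with FastQC 0.11.2 and quantified with kallisto 0.42.5 (mm10). The tables that the authors deposited hold TPM and estimated count columns per transcript. The transcript set was not given in the sources used here, and 97204 of 98492 transcripts matched GENCODE M21 and were summed by gene symbol. Totals were 2245052 to 19096945 per library (median 9601683).

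Estimated counts were rounded and tested in R 4.3.3 with edgeR 4.0.16 and limma 3.58.1 (TMM, quasi-likelihood F-test, Benjamini-Hochberg adjustment), keeping genes that reached 6 counts in 3 or more of the libraries fitted. SI, colon, the PDGFRahi FB and Fgfr2+ FB of both tissues, and the pericytes were fitted apart. Calls required a log2 fold change beyond 1.5 in either direction at an adjusted p under 0.05. The p-values measure spread between libraries.

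All members were named in every population. Further genes named were the 3 nearest patterns per member, markers, and from each pathway list up to 3 called genes per comparison with the largest change and no overlap. The members and lists were chosen with earlier results of these data known.

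Alternatives were DESeq2 1.42.0, RLE factors, no filter, 10 counts in every library of 1 population, no fold threshold, TPM-scaled counts, 1 model for all 30 libraries, a fit of the compared populations alone, a block by replicate, shares of CPM, and leaving out each library. TPM-scaled counts are TPM scaled to the library total, with no transcript length put back. The top transcript of a library held 14.8 to 55.9% of its TPM. The tests were also run on simulated data, for some comparisons of single populations and with changes set only in genes of higher level. The outcome is not given here. That check does not cover members with few counts, averaged FB populations or the interaction. Promoter sequences are from RefSeq. Protein sequences were not used here.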

Additional observations from a re-analysis of the deposited data

Results flagged for a closer look

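The difference between SI and colon differed between the FB subsets for *Sfrp1* and *Frzb*, by the interaction test of edgeR. The difference in PDGFRahi FB minus that in Fgfr2+ FB was -2.31 for *Sfrp1* and -6.54 for *Frzb* on the log2 scale. Only 3 *Frzb* counts were seen in SI PDGFRahi FB, so that the fitted size for *Frzb* is no bound. The gates of these subsets differed between the tissues, and the cause was not tested.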

How the results depend on the processing

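The calls of members numbered 16 within the SI, 20 within the colon, 2 between tissues and 2 in the interaction. With TPM-scaled counts there was 1 call between tissues and 1 in the interaction, and with all 30 libraries in 1 model there were 4 between tissues and, by edgeR, 0 in the interaction, with 3 members at an unadjusted p below 0.05. DESeq2 was not run on that model, and called 2 in the interaction fit of 12 libraries. The cause was not tested. With no fold threshold the calls were 16, 21, 2 and 2. The other counts stayed within 1.5 times those reported. All these counts, and the values of called members below, include *Wif1*. It passed the filter only through PDGFRahi FB and was left out of the counts of calls above, so that its calls here are no support. Calls gained below include those of *Wif1* and *Sfrp4* in the SI, where each passed the filter only through the population with its highest level. With each library left out in turn, the calls were 13 to 23 within the SI, 15 to 22 within the colon, 2 to 2 between tissues and 2 to 2 in the interaction. Of 906 values of the called members under an alternative, 855 kept their call, 51 lost it and 0 reversed. Members not called gained 52 calls, the fold threshold aside, of which 21 came with a library left out, 10 with DESeq2, 8 with all 30 libraries and 7 with only the populations compared. Of 100 shares of the summed level, 21 moved by more than 1 SD with CPM in place of TPM. For the pathway genes named the same alternatives were added after seeing the data, and of 1802 values 1656 kept their call, 146 lost it and 0 reversed. *Wif1* was not tested in the 3 fits of each tissue that left out a PDGFRahi FB library. The interaction was already fitted on only the populations compared.

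With a replicate block, which treats libraries of the same replicate number as paired, the calls were 16, 20, 2 and 2. Over 135 pairs of libraries, the correlation of deviations from the population means by replicate number was -0.11 to 0.14 (median 0.01), with 1 pair above 0.1, and the block changed no call of a member. Of 80 calls of the pathway genes named, 75 were kept with the block and 5 were lost.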
